A study of Homo sapiens with 10 samples.

Results

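The genes examined were 8 transcription factors of the kidney tubule, PAX8, PAX2, LHX1, HNF4A, SOX9, SOX4, KLF6 and ELF3, and the question was how their mRNA changed when RPTECs were irradiated to bring on senescence. They were chosen by name, for their known place in tubule identity or in the response to injury, from the 61587 genes of the count table. All 8 were found by their Ensembl identifiers, and 7 of them had at least 200 counts over the 10 libraries, which was the limit for testing. RPTEC/TERT1 is a line of human proximal tubule (PT) epithelial cells immortalised by expression of telomerase, so that every sample of either group carries the telomerase transgene and none is primary tissue. The control group held 5 samples that were not irradiated, and the irradiated group held 5 samples given 10 Gy. RNA from both groups was taken on day 7 and enriched for polyadenylated transcripts. Each sample of one group shares a replicate number with a sample of the other, and samples were compared within these 5 pairs. Nothing in the labels says whether replicates were separate cultures, so p-values measure the spread between these samples, which may be technical.

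PAX8 and PAX2 are paired-box factors that commit embryonic mesenchyme to the nephron and continue to mark tubule epithelium, and LHX1 is a LIM homeobox factor required for patterning of the early nephron. HNF4A is the nuclear receptor that drives the mature PT program of transporters and metabolic enzymes. SOX9 is switched on in injured PT cells that go on to repair the tubule, while SOX4 (a SOXC factor), KLF6 (a zinc-finger factor) and ELF3 (an epithelial ETS factor) have been linked to the injured tubular state.

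Promoter sequence of the 3 factors from this last group is shown because they are the injury-linked members whose mRNA changed. Each sequence holds the 250 bases before the RefSeq start on GRCh38.p14, printed 5′ to 3′ on the strand of the gene, with matches to the searched motifs in capitals (ATTGG is CCAAT read on the other strand). The windows are chr10:3785210-3785459 on the minus strand for KLF6, chr6:21593501-21593750 on the plus strand for SOX4 and chr1:202010337-202010586 on the plus strand for ELF3. The gene coordinates given below are from GENCODE, which starts KLF6 and ELF3 at other bases than RefSeq. By those coordinates the ELF3 window lies inside the gene, and the KLF6 window does so in part.
KLF6: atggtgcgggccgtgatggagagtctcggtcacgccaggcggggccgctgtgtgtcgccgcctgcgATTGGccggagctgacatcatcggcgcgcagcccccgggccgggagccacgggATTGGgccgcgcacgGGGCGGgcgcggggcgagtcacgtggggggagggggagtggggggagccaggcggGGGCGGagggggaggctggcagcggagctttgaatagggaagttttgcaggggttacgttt
SOX4: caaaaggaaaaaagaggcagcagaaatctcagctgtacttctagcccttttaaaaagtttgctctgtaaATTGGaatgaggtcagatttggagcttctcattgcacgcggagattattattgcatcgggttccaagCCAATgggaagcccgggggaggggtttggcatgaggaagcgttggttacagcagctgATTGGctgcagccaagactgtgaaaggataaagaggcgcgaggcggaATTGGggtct
ELF3: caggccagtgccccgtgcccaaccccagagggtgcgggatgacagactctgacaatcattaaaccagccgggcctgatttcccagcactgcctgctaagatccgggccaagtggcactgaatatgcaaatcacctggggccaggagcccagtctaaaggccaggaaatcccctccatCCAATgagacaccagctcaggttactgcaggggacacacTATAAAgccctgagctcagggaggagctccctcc

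The windows differed in composition. KLF6 had 72.4% G and C, SOX4 48.8% and ELF3 58.4%, where the median of 35116 RefSeq promoter windows of the same length was 58.0%. CpG was close to the number its base composition gives in KLF6 (observed to expected ratio 0.972), lower in SOX4 (0.589) and lowest in ELF3 (0.19). The letters searched on either strand were those of the TATA box (TATAAA), the CCAAT box (CCAAT), the GC box (GGGCGG), the KLF box (CCACACCC), the AP-1 site (TGACTCA), the cAMP response element (TGACGTCA), the ETS site (CCGGAAGT), the SOX site (AACAAAG) and the HNF4 site (CAAAGTCCA), with the NF-κB and p53 sites by their consensus. SOX4 held 4 matches to CCAAT and KLF6 held 2, with 2 matches to GGGCGG besides. ELF3 held 1 CCAAT and 1 TATAAA, the latter from 34 to 29 bases before its start, and no matches overlapped. CCAAT occurs in 32.0% of all promoter windows, GGGCGG in 42.6% and TATAAA in 10.7%. A match describes the letters of the window and is no evidence that a factor binds there.

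Expression is given as TMM-normalised CPM, in which the count of each gene is divided by the scaled total of its library. Totals per library ran from 78081911 to 131555873 counts in controls and from 66269311 to 101594948 in irradiated samples. Of 19006 genes tested by edgeR's quasi-likelihood test, 46.6% changed at an adjusted p-value (Benjamini-Hochberg) under 0.05, 23.9% upwards and 22.7% downwards. Against this background 5 of the 7 tested factors changed, with KLF6 and SOX4 higher and LHX1, ELF3 and PAX2 lower in irradiated RPTECs. Control replicate 3 stood apart from the other controls, departing more than 2-fold from their mean at 5.97% of genes, where the other 9 libraries did so at 0.589% to 2.7%. CDKN1A, which encodes the cell cycle inhibitor p21, was at 207.6 CPM in control replicate 3 and at 66.74 to 80.89 in the other controls. Every factor is therefore given with and without this library.

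**Figure D1:**
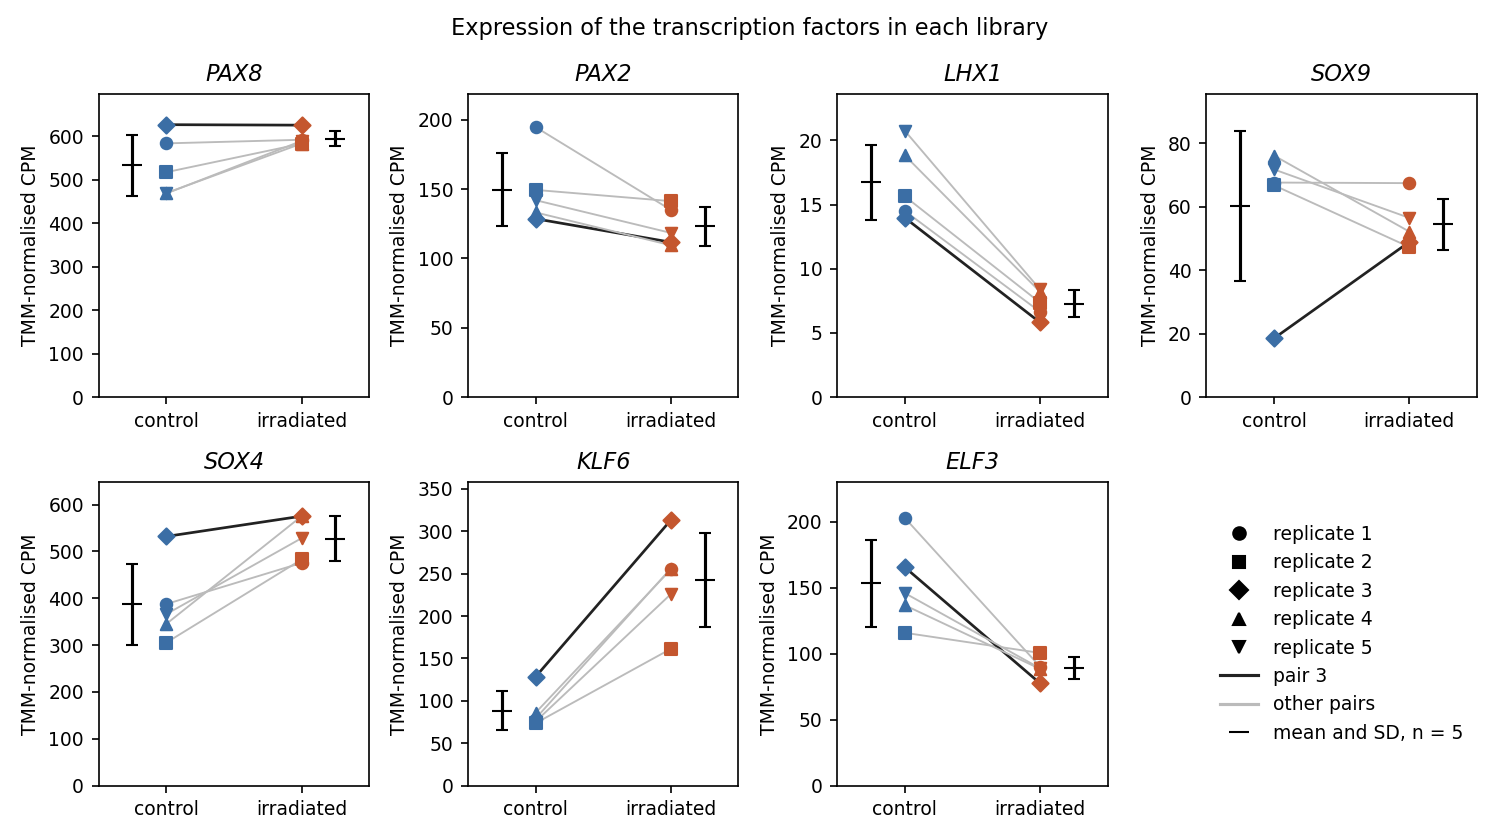
TMM-normalised CPM (vertical axes, each from 0) of the 7 tested factors in the 5 control (blue) and 5 irradiated (orange) libraries. Symbols mark replicate numbers, lines join pairs with pair 3 in black, and bars give the mean and SD. KLF6 lay above and LHX1 and ELF3 below every control after irradiation, and control replicate 3 is the low SOX9 point at 18.55 CPM.

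PAX8 was the most abundant of the identity factors, and its change did not pass the test. It lies on chromosome 2 of GRCh38 from 113215997 to 113278921 on the minus strand. Its expression in control replicates 1 to 5 was 583.5, 517.2, 626.5, 469.2 and 468.4 CPM. In irradiated replicates 1 to 5 it was 591.8, 582.7, 625.4, 583.1 and 589.1 CPM. The irradiated libraries were close together, within the upper part of the control range, and the groups overlapped. The means were 533.0 ± 70.3 and 594.4 ± 17.7 CPM (SD, n = 5 each), for a fitted change of 0.17 on the log2 scale (SE 0.07) whose adjusted p was 0.0719 by edgeR's quasi-likelihood test. The irradiated sample was higher in 4 of 5 pairs. Control replicate 3 was the highest control, and without pair 3 the log2 fold change was 0.21 with an adjusted p of 0.0334 in the same edgeR test. The call of PAX8 thus turned on that pair.

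PAX2 was lower after irradiation by a modest amount. The gene is on chromosome 10 from 100735396 to 100829944 on the plus strand. In control replicates 1 to 5 its expression was 194.7, 149.4, 128.6, 133.2 and 142.0 CPM, and in irradiated replicates 1 to 5 it was 135.0, 141.3, 111.7, 109.5 and 118.4 CPM. Each irradiated sample was below its own control while the groups as wholes overlapped. The means were 149.6 ± 26.5 and 123.2 ± 14.3 CPM (SD, n = 5 each), for a fitted change of -0.27 on the log2 scale (SE 0.06, adjusted p = 0.0101 by edgeR). The reduction within pairs ran from a ratio of 0.694 in pair 1 to 0.946 in pair 2. Without pair 3 the log2 fold change was -0.28. With no replicate block its adjusted p was 0.0799 by edgeR at a log2 fold change of -0.28, and with control replicate 3 also left out it was 0.0453 at -0.32. PAX8 and PAX2, which are close relatives, thus had fitted changes of opposite sign in these cells, of which that of PAX2 passed the test with all 5 pairs.

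LHX1 fell by more than 2-fold, as did 4.06% of all tested genes. LHX1 is found on chromosome 17 from 36936785 to 36944612 on the plus strand. Control replicates 1 to 5 held 14.51, 15.65, 13.98, 18.84 and 20.76 CPM, and irradiated replicates 1 to 5 held 6.65, 7.36, 5.82, 8.21 and 8.39 CPM. No irradiated library reached the lowest control. The mean went from 16.8 ± 2.93 to 7.29 ± 1.08 CPM (SD, n = 5 each), a fitted fold of 0.436 and a log2 change of -1.20 (SE 0.06, adjusted p = 1.94e-05 by edgeR). The ratio within pairs stayed between 0.404 and 0.470, and leaving out pair 3 gave a log2 fold change of -1.18.

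HNF4A was at the edge of detection in every library. The gene lies on chromosome 20 from 44355699 to 44432845 on the plus strand. Control replicates 1 to 5 held 1, 0, 0, 2 and 0 counts and irradiated replicates 1 to 5 held 1, 1, 1, 4 and 2 counts, in libraries of at least 66269311 counts. Its level was thus far below that of every other member in each library. A count of 0 allows up to 3 counts in a library, and no fold between groups is given at these counts. HNF4A was not tested under the limit of 200 counts. When every gene with at least 1 count was kept, its adjusted p was 0.434 by edgeR.

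SOX9 did not pass the test over all 5 pairs, and this result rested on control replicate 3. SOX9 lies on chromosome 17 from 72121020 to 72126416 on the plus strand. In control replicates 1 to 5 its expression was 67.68, 66.82, 18.55, 76.19 and 71.82 CPM, and in irradiated replicates 1 to 5 it was 67.50, 47.35, 48.95, 52.21 and 56.54 CPM. Control replicate 3 was far below every other library, whereas irradiated replicate 3 lay among the other irradiated samples. The means of 60.2 ± 23.6 and 54.5 ± 8.07 CPM (SD, n = 5 each) gave a log2 fold change of -0.02 with a SE of 0.27 and an adjusted p of 0.956 by edgeR. Within pairs the ratio was 0.997, 0.709, 2.64, 0.685 and 0.787 for pairs 1 to 5, so that SOX9 in pair 3 was higher after irradiation and in the other pairs was not. On the log2 scale control replicate 3 differed by -1.93 from the mean of the other controls, a departure that 0.531% of tested genes equalled or exceeded in that library. Without pair 3, where 47.2% of genes passed the test and 7 of the 7 tested factors did, the control mean of SOX9 was 70.6 ± 4.30 CPM (SD, n = 4) and it was lower in irradiated samples, with a log2 fold change of -0.34 (SE 0.09, adjusted p = 0.0167 by edgeR). Leaving out control replicate 3 by itself, with no pairing, gave -0.37 (adjusted p = 0.0113 by edgeR).

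SOX4 was the most abundant of the injury-linked factors and was higher after irradiation. It lies on chromosome 6 from 21593751 to 21598619 on the plus strand. Control replicates 1 to 5 held 387.7, 305.3, 532.0, 345.2 and 366.1 CPM, and irradiated replicates 1 to 5 held 475.5, 482.8, 575.3, 575.2 and 528.3 CPM. Control replicate 3 was the highest control and overlapped the irradiated range, which the other 4 controls did not reach. The mean went from 387.3 ± 86.4 to 527.4 ± 48.1 CPM (SD, n = 5 each), for a fitted change of 0.47 on the log2 scale (SE 0.09, adjusted p = 0.00507 by edgeR), and SOX4 was higher after irradiation in each of the 5 pairs. The smallest ratio, 1.08, was that of pair 3 and the largest, 1.67, that of pair 4. Without pair 3 the log2 fold change was 0.56.

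KLF6 showed the largest change of the tested factors. It lies on chromosome 10 from 3775996 to 3785281 on the minus strand. In control replicates 1 to 5 its expression was 79.09, 73.60, 128.3, 85.93 and 75.58 CPM, and in irradiated replicates 1 to 5 it was 256.0, 161.3, 313.1, 254.9 and 225.8 CPM. The highest control, replicate 3, stayed below the lowest irradiated sample, replicate 2. The mean rose 2.74-fold, from 88.5 ± 22.7 to 242.2 ± 55.2 CPM (SD, n = 5 each), for a fitted change of 1.45 on the log2 scale (SE 0.09, adjusted p = 2.9e-05 by edgeR). A rise of more than 2-fold was found for 5.26% of all tested genes. Ratios within pairs ran from 2.19 to 3.24, and without pair 3 the log2 fold change was 1.50.

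ELF3 went the other way from SOX4 and KLF6. ELF3 is located on chromosome 1 from 202007945 to 202017183 on the plus strand. Control replicates 1 to 5 held 203.0, 115.9, 165.6, 136.8 and 146.0 CPM, and irradiated replicates 1 to 5 held 90.22, 100.6, 77.60, 88.53 and 88.97 CPM. Each irradiated library was below the lowest control, control replicate 2. The mean fell from 153.5 ± 33.0 to 89.2 ± 8.16 CPM (SD, n = 5 each), a fitted fold of 0.589 and a log2 change of -0.76 (SE 0.13, adjusted p = 0.00256 by edgeR). The size of the reduction differed among pairs, from a ratio of 0.444 in pair 1 to 0.868 in pair 2. Without pair 3 the log2 fold change was -0.67.

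KLF6, ELF3 and LHX1 were the factors whose groups did not overlap, as for 26.7% of all tested genes (14.6% higher and 12.0% lower). Across the set, control replicate 3 differed from the mean of the other controls by a log2 value of 0.71 for KLF6, 0.60 for SOX4, 0.30 for PAX8, 0.17 for ELF3, -0.25 for PAX2, -0.30 for LHX1 and -1.93 for SOX9. Departures of the first 6 sizes were found in that library for between 12.5% and 61.6% of tested genes. In that library KLF6, SOX4, PAX8, PAX2 and LHX1 thus stood on the irradiated side of the mean of the other controls, ELF3 stood on the opposite side, and SOX9 stood below every library of either group. Control replicates 1 and 3 also had the lowest levels of 28 cell cycle genes among controls, a mean log2 CPM of 4.09 and 4.04 against 5.35 to 5.42 in the other 3. MKI67, a marker of cycling cells, was at 76.73 and 60.44 CPM in these libraries and at 216.7 to 233.9 in the others. With pairs 1 and 3 left out, a choice made after these values were seen, the log2 fold changes were 0.26 for PAX8, -0.23 for PAX2, -1.22 for LHX1, -0.48 for SOX9, 0.63 for SOX4, 1.41 for KLF6 and -0.53 for ELF3. All 7 passed the edgeR test in that fit, where 8180 of all 17388 tested genes did so. Whether the state of these controls has a part in the members' values was not tested.

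**Figure D2:**
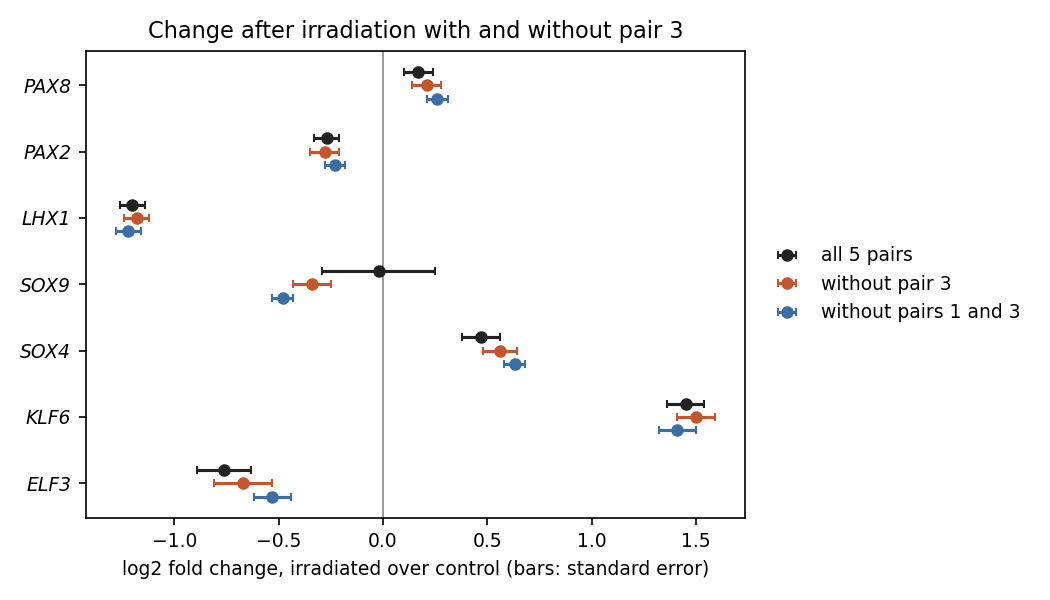
Log2 fold change of irradiated over control (horizontal axis) with its SE for the 7 tested factors, fitted on all 5 pairs (black), without pair 3 (orange) and without pairs 1 and 3 (blue). SOX9 moves from -0.02 to -0.34 and -0.48, PAX8 moves from 0.17 to 0.21 and 0.26 and ELF3 from -0.76 to -0.67 and -0.53, and all 7 keep their sign.

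Levels were set side by side between genes after division by the length of all annotated exons of each gene. That length can exceed the length of the mRNA expressed, so the order depends in part on the annotation. In control samples SOX4 had the highest level, 79.5 CPM per kilobase of exon, followed by PAX8 at 72.3, PAX2 at 22.7, ELF3 at 21.4, SOX9 at 15.3, KLF6 at 14.4 and LHX1 at 3.41 CPM per kilobase. SOX4 and PAX8 overlapped in their ranges, as did PAX2 with ELF3, ELF3 with SOX9 and SOX9 with KLF6, so that these neighbours were not told apart by level. PAX8 stood apart from PAX2, and LHX1 from the rest. In irradiated samples the order was SOX4 at 108.0, PAX8 at 80.6, KLF6 at 39.5, PAX2 at 18.7, SOX9 at 13.9, ELF3 at 12.4 and LHX1 at 1.48 CPM per kilobase. The ranges of PAX2 and SOX9 overlapped there, as did those of SOX9 and ELF3. KLF6, sixth in controls, stood between PAX8 and PAX2 in all 5 irradiated libraries and overlapped with neither. Exons of PAX8 lie under exons of the opposite strand for 22.4% of their length, those of ELF3 for 9.24%, LHX1 for 7.47% and SOX4 for 3.45%, while PAX2, HNF4A, SOX9 and KLF6 have no such overlap. Of 425 long non-coding RNA genes wholly under opposite-strand exons 97.9% had 0 counts, against 28.8% of 12007 without overlap, and reads in such stretches are treated as left out of the counts, so that the levels of PAX8, ELF3, LHX1 and SOX4 can be too low.

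**Figure D3:**
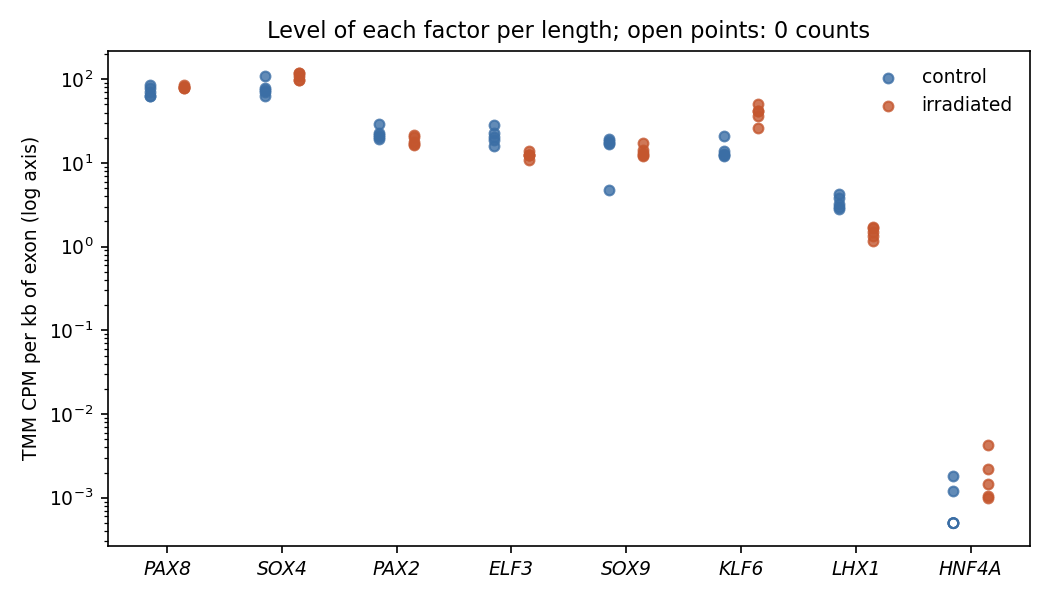
TMM-normalised CPM per kilobase of exon (vertical log axis) of the 8 factors in each control (blue) and irradiated (orange) library, with open points for libraries with 0 counts. KLF6 goes from among SOX9 and ELF3 in controls to between PAX8 and PAX2 after irradiation, and HNF4A lies far below all others.

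Transcripts that neighbour the factors were examined next, since antisense and divergent RNAs often share a promoter region with a developmental gene. That reason does not hold for all of them. PAX8-AS1 starts 67500 bases from the start of its factor, CASC15 70433 and SOX9-AS1 116183. ELF3-AS1 starts 2518 bases from the GENCODE start of ELF3, within the RefSeq promoter window printed for ELF3, and their gene bodies overlap. LHX1-DT starts 115 bases from LHX1 on the other strand, does not overlap it, and is on chromosome 17 from 36861674 to 36936670. It fell from 12.2 ± 1.81 to 5.21 ± 1.14 CPM (SD, n = 5 each), for a fitted change of -1.24 on the log2 scale (adjusted p = 5.91e-05 by edgeR) beside -1.20 for LHX1. SOX9-AS1 fell from 0.604 ± 0.0939 to 0.296 ± 0.0610 CPM (SD, n = 5 each, log2 fold change -1.03, adjusted p = 0.00181 by edgeR). In control replicate 3 SOX9-AS1 was at 0.688 CPM, within the 0.504 to 0.709 of the other controls, unlike SOX9 itself. PAX8-AS1 was at 109.5 ± 14.4 and 126.3 ± 10.8 CPM (SD, n = 5 each) with an adjusted p of 0.0806 by edgeR and a log2 fold change of 0.21, near that of PAX8. The gene bodies of PAX8-AS1 and PAX8 overlap on opposite strands, and whether reads of one were counted for the other was not tested. ELF3-AS1 was higher, from 3.02 ± 0.55 to 3.97 ± 0.46 CPM (SD, n = 5 each, log2 fold change 0.41, adjusted p = 0.0222 by edgeR), where ELF3 was lower, and 23.3% of its exon length lies under the opposite strand. CASC15, downstream of SOX4, had a log2 fold change of -0.12 (adjusted p = 0.359 by edgeR). HNF4A-AS1 had 0 counts, and PAX2-AS1 was not matched to the table.

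The closest relatives of the factors did not all follow them. Of 16 paralogues 10 were tested, and 3 were higher and 5 lower, with a median log2 fold change of -0.21 against -0.01 for all tested genes. The counts of this and of each later list stand beside 23.9% of all tested genes called higher and 22.7% called lower. HNF4G, the sister receptor of HNF4A, fell from 7.95 to 5.55 CPM (log2 fold change -0.52). SOX12, which belongs with SOX4 to the SOXC group, fell from 141.4 ± 19.8 to 84.0 ± 8.60 CPM (SD, n = 5 each, log2 fold change -0.75, adjusted p = 0.000571 by edgeR) while SOX4 rose. SOX8, which belongs with SOX9 to the SOXE group, fell from 0.444 to 0.118 CPM (log2 fold change -1.77), and its control replicate 3 was the highest control at 1.19 CPM. KLF7, the nearest relative of KLF6, fell from 39.7 to 30.5 CPM (-0.39), while KLF4 rose from 14.2 to 24.9 CPM (0.82) and KLF5 from 129.3 to 143.9 CPM (0.16). KLF2 was at 0.927 and 1.22 CPM with an adjusted p of 0.0809 by edgeR. EHF, an epithelial ETS relative of ELF3, was at 56.5 ± 13.1 and 55.4 ± 11.6 CPM (SD, n = 5 each) with a log2 fold change of -0.02 (adjusted p = 0.895 by edgeR).

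The wider families gave a similar mixture. Of 17 other SOX genes, which include SOX8 and SOX12 from above, 8 were tested, with 2 higher and 6 lower and a median log2 fold change of -0.60. When 1 pair was left out, 1 to 2 were higher and 4 to 5 lower, and the median ran from -0.66 to -0.39. SOX17, an endoderm and endothelial factor, rose from 5.22 ± 1.94 to 18.3 ± 3.73 CPM (SD, n = 5 each, log2 fold change 1.86, adjusted p = 0.000178 by edgeR) and SOX15 from 3.60 to 5.52 CPM (0.63), while SOX5 fell from 0.546 to 0.202 CPM (-1.45). Of 16 other KLF genes 12 were tested, with 5 higher and 3 lower and a median of 0.12, and KLF10 (48.4 to 73.1 CPM, log2 fold change 0.59) and KLF12 (24.6 to 18.9 CPM, -0.39) moved in opposite directions. Among 18 other PAX and LIM homeobox genes 4 were tested, with 2 higher and 1 lower. LHX9 fell from 11.8 ± 3.73 to 2.01 ± 1.08 CPM (SD, n = 5 each, log2 fold change -2.64, adjusted p = 0.000119 by edgeR), PAX6 rose from 3.15 to 5.96 CPM (0.95) and LHX4 from 2.72 to 3.45 CPM (0.38). Of 14 epithelial ETS and grainyhead factors 12 were tested, with 1 higher and 3 lower and a median of 0.04, which was -0.04 with library size as the scaling. ETS1 rose from 102.2 ± 24.3 to 148.9 ± 27.2 CPM (SD, n = 5 each, log2 fold change 0.56, adjusted p = 0.0105 by edgeR), while ELF2 fell from 33.0 to 25.8 CPM (-0.36) and GRHL3 from 11.6 to 9.07 CPM (-0.36).

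Other factors of tubule identity moved downwards more often than upwards. Of 14 factors that maintain the PT program 13 were tested, with 1 higher and 9 lower and a median log2 fold change of -0.52. Among all tested genes 23.9% were higher and 22.7% lower. ESRRG, an orphan receptor of mitochondrial metabolism, fell from 19.4 ± 6.04 to 4.93 ± 2.01 CPM (SD, n = 5 each, log2 fold change -1.99, adjusted p = 0.000369 by edgeR), and PPARGC1A, the coactivator of mitochondrial biogenesis, fell from 54.5 ± 15.9 to 21.6 ± 3.27 CPM (SD, n = 5 each, -1.30). Of 25 genes of nephron development, most of them transcription factors, 21 were tested, with 3 higher and 14 lower and a median of -0.64. MECOM fell from 442.7 ± 27.0 to 186.3 ± 59.9 CPM (SD, n = 5 each, log2 fold change -1.30, adjusted p = 0.000156 by edgeR), TFAP2B from 218.4 to 99.6 CPM (-1.17) and POU3F3, the most abundant, from 550.5 to 425.6 CPM (-0.38). WNT4 rose from 0.248 to 0.484 CPM (0.97) and RET from 0.256 to 0.476 CPM (0.93), at levels under 1 CPM. Both are among the genes counted as higher, and both encode signalling proteins and not transcription factors. The change of LHX1, -1.20, lay between those of MECOM and TFAP2B.

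Proteins that work with the factors, such as the LDB1 and SSBP cofactors of LHX1 and the NCOA coactivators of nuclear receptors, were also examined. All 14 were tested, with 1 higher and 7 lower and a median log2 fold change of -0.14. NCOA1 fell from 50.5 to 35.3 CPM (-0.52), SSBP2 from 16.5 to 11.8 CPM (-0.51), and WWTR1, which encodes the coactivator TAZ, rose from 220.6 to 267.7 CPM (0.31). CTNNB1, the most abundant, was at 339.0 and 352.9 CPM with an adjusted p of 0.291 by edgeR. Of 23 tubule genes known to be controlled by tubule transcription factors 13 were tested, with 2 higher and 5 lower and a median of -0.18. CLTRN, which encodes collectrin of the brush border, rose from 0.553 ± 0.156 to 3.68 ± 0.974 CPM (SD, n = 5 each, log2 fold change 2.73, adjusted p = 8.62e-06 by edgeR) and PKHD1, which encodes fibrocystin, from 181.6 to 203.8 CPM (0.18). CDH16, the kidney cadherin and a PAX8 target, fell from 245.8 ± 66.5 to 146.9 ± 56.2 CPM (SD, n = 5 each, log2 fold change -0.78, adjusted p = 0.000143 by edgeR) beside 0.17 for PAX8, and SLC3A1 fell from 4.15 to 2.28 CPM (-0.84).

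Genes of the repairing and dedifferentiated tubule were all tested, with 8 of 16 higher and 2 lower and a median log2 fold change of 0.37. VCAM1 rose from 0.283 ± 0.079 to 2.30 ± 0.619 CPM (SD, n = 5 each, log2 fold change 2.98, adjusted p = 7.52e-05 by edgeR) and CDH6, a cadherin of the developing tubule, from 37.7 ± 9.28 to 246.2 ± 59.8 CPM (SD, n = 5 each, 2.70). The progenitor-associated surface genes fell, CD24 from 4603 ± 829.5 to 2504 ± 201.4 CPM (SD, n = 5 each, log2 fold change -0.86) and PROM1 from 384.3 to 281.9 CPM (-0.44). Of 16 immediate early genes, which share rapid induction by stress with KLF6, 15 were tested, with 7 higher and 1 lower and a median of 0.30. BTG2 rose from 12.9 to 42.3 CPM (1.73) and ATF3 from 1.58 to 2.58 CPM (0.93), EGR1 fell from 24.4 to 20.5 CPM (-0.23), and JUN, the most abundant, was at 292.5 and 327.3 CPM with an adjusted p of 0.0675 by edgeR. ATF3 was at 3.81 CPM in control replicate 3 and at 0.854 to 1.25 in the other controls, a higher value in the same library as KLF6. Of 28 cell cycle genes 25 were lower and 0 higher by edgeR, with a median of -1.84, led by MKI67 (161.6 ± 85.4 to 24.0 ± 5.32 CPM, SD, n = 5 each, -2.57) and KIF20A (23.7 to 3.61 CPM, -2.56).

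**Figure D4:**
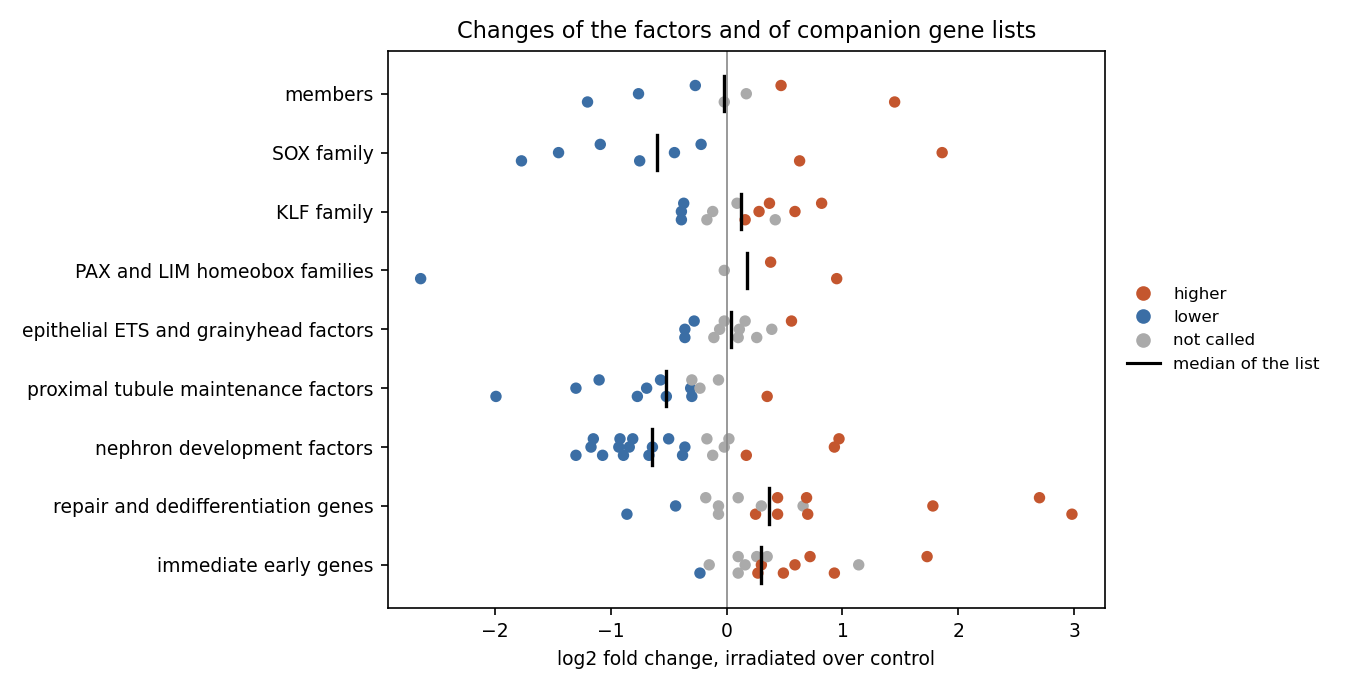
Log2 fold change of irradiated over control (horizontal axis) for each tested gene of the factor set and of 8 companion lists (rows), coloured by the edgeR call, with the median of each list as a vertical bar. Medians are -0.64 for nephron development factors, -0.52 for PT maintenance factors and 0.37 for repair genes.

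Genes whose pattern over the 10 libraries lay closest to a factor were sought among 12842 genes by the root-mean-square (RMS) difference of centred log2 CPM. The factors searched were the 5 with an SD of log2 CPM over 0.3, which left out PAX8 (0.156) and PAX2 (0.240). KLF6 lay closest to PLAU, which encodes urokinase, at an RMS difference of 0.068, and PLAU was at 1013 CPM in controls and 2839 CPM in irradiated samples. CD74 (0.121) followed. SOX4 lay closest to ADAMTS1 (0.0807), SLC15A4 (0.0849) and ADPRH (0.0862), each with its highest control value in replicate 3. SOX9 lay closest to an unnamed gene, ENSG00000278952 (0.149), to the kinase gene STK32A (0.150) and to ENSG00000289307 (0.254), and STK32A was at 4.61 CPM in control replicate 3 and at 13.4 to 17.9 in the other controls. ELF3 lay closest to SALL2 (0.0993), STS (0.0999) and SPATA17 (0.107). LHX1 lay closest to ADAMTSL3 (0.0972), which was at 160.1 CPM in controls and 78.1 CPM in irradiated samples, to its neighbour LHX1-DT (0.127) and to C18orf54 (0.143). These nearest genes are a description over libraries that share 2 conditions and the departure of control replicate 3.

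The label of the cells as proximal tubule was checked against markers of this and other kidney cell types. Of 10 PT markers 5 were under the limit of 200 counts, among them LRP2 (17 counts over all libraries), SLC34A1 (86), SLC22A6 (1) and SLC5A12 (10), while PAX8, ANPEP, GGT1, CUBN and CDH6 were tested. The summed level of the PT markers was 774.0 to 903.4 CPM in controls and 967.6 to 1363 CPM in irradiated samples. Most of this sum was PAX8 (means 533.0 and 594.4 CPM), itself a member, and ANPEP (247.8 and 295.8 CPM). CDH6, also listed with the repair genes, rose from 37.7 to 246.2 CPM and was the 1 tested PT marker called. The rise of the sum is thus no measure of the mature PT program. Loop of Henle markers were present in part, with SLC12A1 lower (178.3 ± 125.2 to 60.9 ± 62.4 CPM, SD, n = 5 each), CLDN16 lower (375.0 to 280.2 CPM) and UMOD at 0 counts, and their sums were 405.0 to 759.7 and 290.4 to 448.4 CPM. Of 6 fibroblast markers COL1A1 and DCN were higher, with sums of 15.8 to 23.4 and 28.5 to 40.0 CPM, and COL3A1 (4 counts) and LUM (2 counts) were near 0. Of 4 endothelial markers CDH5 and PECAM1 were higher, with sums of 1.29 to 2.41 and 4.15 to 6.07 CPM and KDR at 2 counts. Sums of distal tubule markers were 1.67 to 2.41 CPM in controls and up to 2.07 CPM in irradiated samples. Sums were 1.91 to 2.52 and 0.778 to 3.52 CPM for collecting duct, 17.7 to 40.5 and 23.9 to 34.0 for podocyte and 0.269 to 0.648 and 0.305 to 0.680 for leukocyte markers in control and irradiated samples. In bulk RNA, a change in the share of cells of one type and a change of mRNA per cell cannot be told apart.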

How the data were processed

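Bulk RNA-seq of polyadenylated RNA from 5 control and 5 irradiated samples of RPTEC/TERT1 cells gave the data. Adapters were removed by the authors with Trim-Galore, and STAR both aligned the reads to GRCh38 (hg38) and counted them per gene. The counts were deposited raw, as whole numbers. The annotation release is not given in the sources used here, and the labels and the methods name different library kits. The labels number the cell line from sample to sample, and all samples were taken as the line named in the design. Of 61587 identifiers 61415 matched a symbol. Coordinates and exon lengths are from GENCODE genes on GRCh38, promoter windows from RefSeq on GRCh38.p14, whose table holds entries for PAX8, PAX2, HNF4A, SOX4, KLF6 and ELF3.

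Counts were fitted in R 4.3.3 with edgeR 4.0.16 (TMM, glmQLFit, glmQLFTest) for genes whose counts summed to 200 or more, with replicate number as a block as in the study's model, Benjamini-Hochberg adjustment over all tested genes, two-sided, threshold 0.05. The SE is the log2 fold change over the root of the F statistic. The fit was tested on simulated data. The deviations of samples with the same number from their group means correlated at 0.217 to 0.508 over the 5 numbers, and those of different numbers at -0.354 to 0.317. These ranges overlapped, so the correlations do not show pairing for every number. Pairing was taken from the replicate numbers. Every pair of replicates in a group differed beyond sampling noise (chi-square per gene of at least 8.5, the lowest being irradiated replicates 4 and 5), and none were merged. At these depths the spread between replicates sets the precision, except near 200 counts.

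Genes named are all members, their tested paralogues and neighbouring transcripts, the 2 largest rises and 2 largest falls among called genes and the most abundant gene of each other list, CDKN1A and MKI67, and the 3 nearest patterns per member, with a mean log2 CPM of at least 1 and a prior count of 2. The members and lists were chosen with earlier results of these data known. Lists were described by counts and medians, with no test of a list. Results of some genes that this rule selects are not reported here.

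Alternatives were DESeq2 1.42.0, limma-voom (limma 3.58.1), RLE, upper-quartile and library-size scaling, a minimum of 1 count, filterByExpr, no replicate block, each pair left out, control replicate 3 left out with no block and, added after the data had been seen, pairs 1 and 3 left out. Plots were made in Python 3.11.15 (matplotlib 3.10.9).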

Additional observations from a re-analysis of the deposited data

Results flagged for a closer look

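Within each group of 5, the lowest and highest value of every tested factor were compared with the nearest other value by Dixon's ratio (critical value 0.71). Of 14 groups checked 3 held a value apart from the rest, where chance gives about 1 in 20, or 0.7, if the groups are independent. These groups come from the same 10 libraries, and the share flagged among all tested genes is not given here. Control replicate 3 departed more than 2-fold from the mean of the other controls at 5.97% of genes. The count is thus not read as particular to these factors. SOX9 in control replicate 3 was at 18.55 CPM, below the 66.82 to 76.19 CPM of the other controls. KLF6 in control replicate 3 was at 128.3 CPM, above the 73.6 to 85.93 CPM of the other controls. PAX8 in irradiated replicate 3 was at 625.4 CPM, above the 582.7 to 591.8 CPM of the other irradiated samples, and its own control was at 626.5 CPM.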

How the results depend on the processing

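Over 15 alternatives the members' directions and calls were kept except for PAX8, PAX2 and SOX9. With the replicate block removed, the fall of PAX2 (-0.28 on the log2 scale) had an adjusted p of 0.0799, and no other member changed its call. Leaving out 1 pair at a time moved PAX8 between 0.13 and 0.21, and it was called higher at 0.21 without pair 3, at 0.23 without control replicate 3 and no pairing, and at 0.26 without pairs 1 and 3. The same pairs moved SOX9 between -0.34 and 0.12, being 0.11, 0.12 and 0.07, not called, without pairs 2, 4 and 5. SOX9 was called lower at -0.34 without pair 3, -0.37 without control replicate 3 and -0.48 without pairs 1 and 3. The median of the closest paralogues was -0.21, 0.00 without pair 3 and 0.11 without control replicate 3 and no pairing. EHF, not called, ranged from -0.11 to 0.10 when 1 pair was left out (0.00 without pair 3, 0.03 without pair 5) and was 0.11 without control replicate 3. CTNNB1, not called, was -0.02 with library size as the scaling. Of 46 other named genes that were called, 33 kept the call under every alternative, 13 lost it under at least 1, and 0 reversed. The call was lost under at least 4 alternatives for PKHD1 (11 of 15), WWTR1 (9), LHX4 (8), ATF3 (7), EGR1 (6), KLF5 (5) and ELF3-AS1 (4). Leaving out pair 1 ended the calls of SOX8 (adjusted p 0.0733, edgeR) and SOX15 (0.0552), and leaving out pair 5 that of SOX8 (0.0551). With no pairing the call of RET was lost (0.0868), and with no pairing and without control replicate 3 those of CDH16 (0.0671), GRHL3 (0.0702) and SSBP2 (0.0606). The median of repair genes was 0.18 without pairs 1 and 3, that of cell cycle genes -2.53. Of the called genes 51.4% rose, and 38.0% of 9503 with library size as the scaling, which set the median of all genes at -0.086. The cause of these shifts was not tested. HNF4A, at 12 counts in all, was given no fold.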
